A study of Mus musculus with 6 samples.

Results

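Interferon regulatory factors (IRFs) are transcription factors that share a DNA-binding domain and recognise related elements in interferon genes and interferon-stimulated genes. The genes described here are Irf1, Irf2, Irf3, Irf4, Irf5, Irf7, Irf8 and Irf9, chosen by name with earlier results of these data known. Every array probe set that the platform annotation assigned to 1 of these symbols alone was taken, which gave 14 of 45037 tested probe sets and 8 of 18193 genes. Irf3 had 4 probe sets, Irf4, Irf5 and Irf8 had 2 each, and the other 4 genes had 1 each.

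IRFs act at successive steps of the interferon response. Irf3, Irf5 and Irf7 lie downstream of sensors of nucleic acids and microbial products and, after phosphorylation, drive transcription of interferons and inflammatory cytokines. Secreted type I interferon then signals through its receptor to ISGF3, a complex of STAT proteins with Irf9 that binds the interferon-stimulated response element (ISRE) of target genes, and Irf7 is itself such a target. Irf1 is an inducible activator, Irf2 largely opposes it, and Irf4 and Irf8 are best known from lymphoid and myeloid cells. Endothelial cells respond to interferon and carry many of the same components.

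RNA came from mouse lung endothelial cells (ECs) of NSG mice aged 6 to 8 weeks, an immunodeficient strain that lacks lymphocytes, including natural killer cells. All mice carried lung metastases of MDA-MB-231-LM2, a lung-tropic derivative of a human breast cancer cell line, injected into the tail vein. The 3 control samples were from mice given PBS-liposomes and the 3 treated samples from mice given clodronate-liposomes, which kill phagocytes that ingest them, with injections at days 14, 16 and 18 of tumor growth and collection of the lungs at day 20. ECs were sorted as CD31-positive cells, with gates against CD45, CD11b, EpCAM, CD140a, CD140b and tumor-cell GFP, and hybridized to 1 array each. The labels call the replicates biological and do not say how many mice each holds, so p values measure the spread between these samples. The comparison asked how expression in metastasis-associated ECs differed when macrophages were depleted.

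All values are log2 signals after robust multiarray averaging, on which a difference of 1 is a 2-fold change. Every array had a median of 8.13, and arrays correlated at 0.986 to 0.991 within groups and at 0.985 to 0.988 between groups. The labelled cell type was borne out by its markers, as 12 endothelial genes averaged 13.06 to 13.14 on the PBS-liposome arrays and 13.03 to 13.27 on the clodronate-liposome arrays. Pecam1, which encodes CD31, lay at 13.50 to 13.58 in controls and 13.53 to 13.70 after treatment, and Cdh5, which encodes VE-cadherin, at 13.34 to 13.42 and 13.25 to 13.58. Clodronate-liposome replicates 1 and 3 stood apart on control probe sets. Their 3 probe sets for 18S ribosomal RNA averaged 13.01 and 13.00, against 12.33 in replicate 2 and 12.39 to 12.63 in the PBS-liposome group. Their 18 hybridization controls averaged 11.91 and 11.94, against 12.20 in replicate 2 and 12.11 to 12.24 in the PBS-liposome group.

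Upstream sequences are shown for the 3 Irf genes with a motif match and for Irf7, the gene called below. RefSeq promoter windows of 300 bases, 250 before and 50 after an annotated start (GRCm38.p6), existed for 8 of 8 genes, 11 windows in all. They were searched on both strands for an ISRE (GAAA, any 2 bases, GAAA), a gamma-activated site bound by STAT dimers (TTCNNNGAA) and an NF-kB site (GGGA, any base, TTTCC). Matches are in capitals, with up to 30 bases on either side. For Irf7, bases 250 to 76 before the start are printed, a part of the 300 searched.
Irf1, chr11:53769894-53769962, plus strand: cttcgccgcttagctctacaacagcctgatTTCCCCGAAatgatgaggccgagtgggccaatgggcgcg
Irf2, chr8:46739495-46739559, plus strand: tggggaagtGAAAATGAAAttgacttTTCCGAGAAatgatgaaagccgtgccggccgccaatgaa
Irf8, chr8:120736157-120736243, plus strand: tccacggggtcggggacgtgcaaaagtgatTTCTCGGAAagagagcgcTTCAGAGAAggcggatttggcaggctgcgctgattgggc
Irf7, chr7:141266500-141266674, minus strand, no match in its window: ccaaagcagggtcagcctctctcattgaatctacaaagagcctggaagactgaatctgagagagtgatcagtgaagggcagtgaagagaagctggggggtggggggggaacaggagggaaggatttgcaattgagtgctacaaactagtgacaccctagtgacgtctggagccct

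The capitals in Irf1 are a gamma-activated site beginning 90 bases before the start. In Irf2 an ISRE at 241 bases is followed by a gamma-activated site at 224 bases, and the motifs do not overlap. Irf8 holds gamma-activated sites at 171 and 153 bases before its start. An ISRE was thus found in 1 of the 8 genes, a gamma-activated site in 3 and an NF-kB site in 0, while of all 27025 genes with a window 3.99% held the first, 9.55% the second and 0.466% the third. By window, the shares were 3.44%, 8.3% and 0.411% of 32851. These letters are descriptions of the windows only, and none of the 3 genes with a match passed the test below. The ISRE pattern is strict, as 8 of 17 ISRE targets with a window in the list below held it. The lack of a match, as for Irf7, therefore does not show that an element is absent.

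Of the 14 Irf probe sets 1 was called, that of Irf7, and it was lower after clodronate-liposomes (limma, adjusted p under 0.05 over all probe sets). That is 7.14% of the Irf probe sets, where 0.306% of all probe sets were called in either direction, 0.238% lower and 0.0688% higher. By gene, 1 of 8 was called, where 0.346% of all genes were called lower and 0.0879% higher. The groups did not overlap in 3 Irf probe sets, those of Irf7 and Irf9 and 1 of the 2 for Irf8, in each case with the clodronate-liposome arrays below. None was separated the other way and 11 overlapped, where 8.04% of all probe sets were separated downward and 7.97% upward. An unadjusted p under 0.05 was reached by 4 Irf probe sets, of Irf7, Irf9 and both for Irf8, all lower, where 5.27% of all probe sets reached it downward and 5.53% upward. The median difference of the 8 genes was −0.15, against −0.0031 over all genes, and 7 of the 8 had a lower mean in the treated group.

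**Figure D1:**
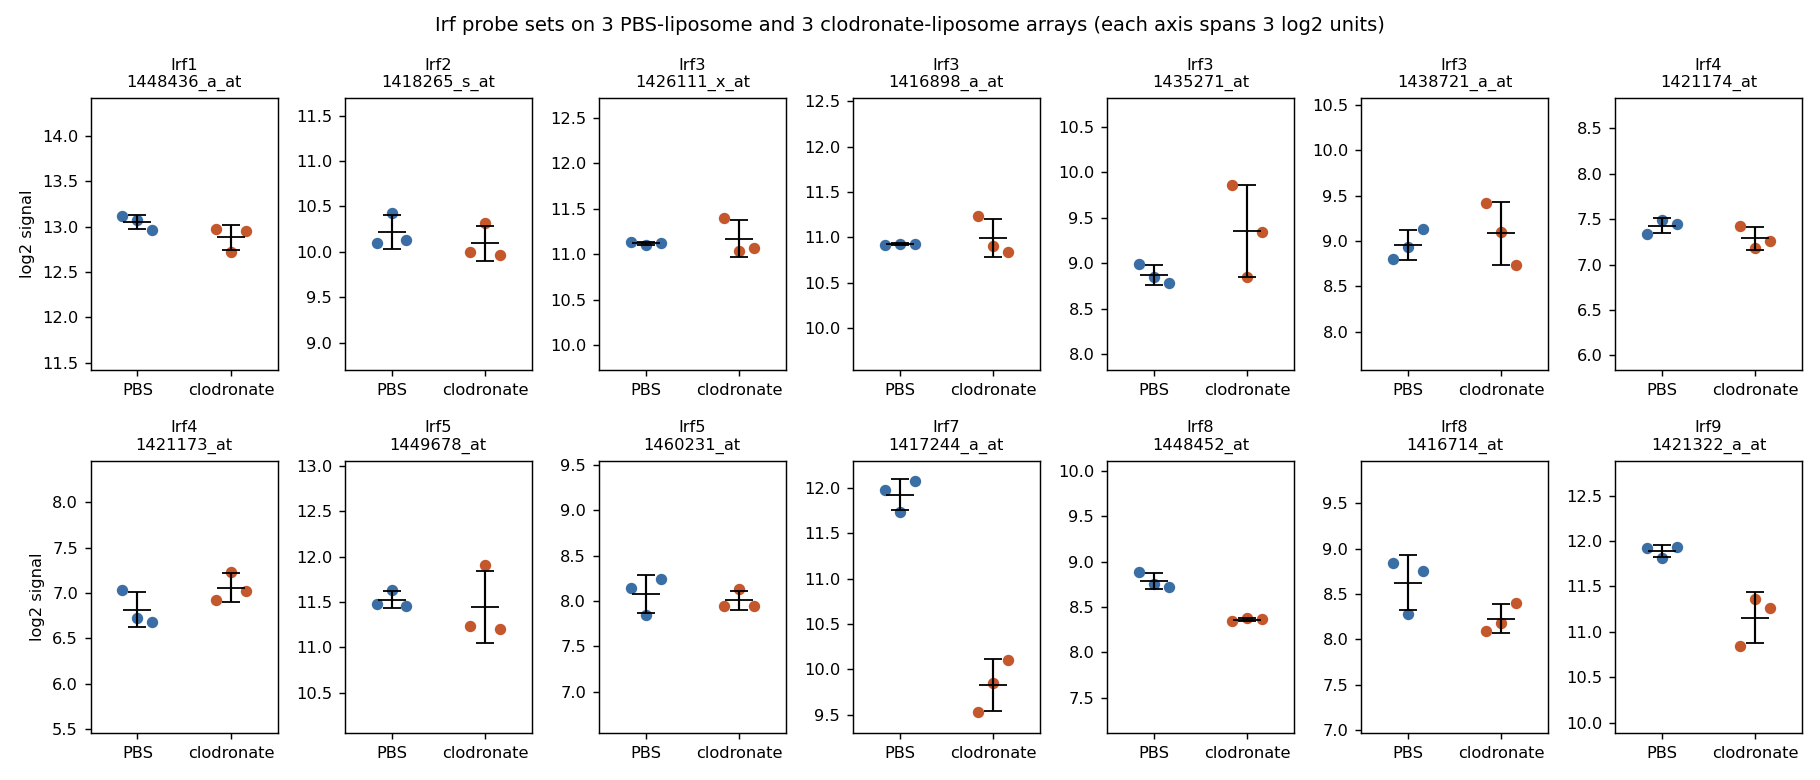
The log2 signal of each of the 14 Irf probe sets, with PBS-liposome arrays in blue and clodronate-liposome arrays in orange, 3 of each. Points are arrays, the horizontal bar is the group mean and the whiskers are its SD, and every vertical axis spans 3 log2 units. Irf7 falls from between 11.73 and 12.07 to between 9.53 and 10.11, Irf9 and 1 Irf8 probe set separate by less, and the groups of the other 11 probe sets overlap.

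Irf7, the interferon-inducible factor that amplifies type I interferon production, had the lowest treated level relative to its control level. Its signal was 11.97, 11.73 and 12.07 in PBS-liposome replicates 1, 2 and 3, and 9.53, 9.85 and 10.11 in clodronate-liposome replicates 1, 2 and 3. The lowest control array lay 1.63 above the highest treated array. The group means were 11.93 ± 0.17 and 9.83 ± 0.29 (SD, n = 3 each), and the difference was −2.10 (SE 0.16, 95% interval −2.48 to −1.72). On a linear scale the signal was 4.28-fold lower (95% interval 3.29 to 5.56), or 23.4% of the control level. The limma adjusted p was 0.00687, rank 7 by p among all 45037 probe sets. An exact permutation test over the 6 arrays, whose smallest possible p is 0.1, gave 0.1.

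The Irf7 difference lay between −2.24 and −1.95 when each array was left out in turn, and limma called it in 6 of 6 such fits. It was as large with the mean of the hybridization controls as a covariate (−2.12, limma adjusted p = 0.117) and when replicate 2 alone stood for the clodronate-liposome group (−2.08, limma adjusted p = 0.197), but was called in neither. In the latter fit the lone treated array is assumed to vary like the control arrays.

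Irf9, the DNA-binding subunit of ISGF3, was next in size. Its signal was 11.92, 11.81 and 11.93 on the PBS-liposome arrays and 10.84, 11.37 and 11.26 on the clodronate-liposome arrays. The groups were 0.44 apart at their nearest, and clodronate-liposome replicate 1 was the lowest array, as it was for Irf7. The difference of −0.73 (SE 0.15, 95% interval −1.07 to −0.40), a 1.66-fold lower signal, had an unadjusted p of 0.00107 and a limma adjusted p of 0.117. It therefore did not pass over all probe sets, and its value lay between −0.84 and −0.57 with each array left out.

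The other factors downstream of innate sensors did not separate. Irf3 is present in most cells and is activated by phosphorylation rather than by induction. Its brightest probe set read 11.13, 11.10 and 11.13 in controls and 11.40, 11.04 and 11.07 after treatment, a difference of 0.05 (95% interval −0.23 to 0.33, limma adjusted p = 0.934). Other probe sets gave 0.07 and 0.13. The remaining Irf3 probe set read 8.99, 8.85 and 8.78 in controls and 9.86, 8.85 and 9.35 after treatment, a difference of 0.48 with an interval of −0.05 to 1.01 (limma adjusted p = 0.517). Clodronate-liposome replicate 1 was the highest of the 6 arrays in all 4 Irf3 probe sets, and without it the brightest gave −0.068.

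Irf5, which acts below Toll-like receptors in myeloid and other cells, was measured by a pair of probe sets of unlike brightness. The brighter, designed on an expressed sequence tag, read 11.48, 11.63 and 11.46 in controls and 11.23, 11.91 and 11.21 after treatment. The dimmer, designed on a curated Irf5 transcript, read 8.14, 7.85 and 8.25 in controls and 7.95, 8.13 and 7.95 after treatment. The annotation assigns both to Irf5 alone, but whether the brighter, which stands for Irf5 wherever 1 probe set per gene is used, measures Irf5 transcripts was not tested. Both differed by −0.07, with limma adjusted p of 0.938 and 0.905, and in both clodronate-liposome replicate 2 was the highest treated array. The interval of the brighter was −0.51 to 0.36, and its sign turned when clodronate-liposome replicate 1 (0.035) or replicate 3 (0.047) was left out.

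Irf1, the activator of many interferon-gamma targets, and Irf2, which binds the same elements, were each measured by 1 probe set. Irf1 read 13.11, 13.07 and 12.96 in controls and 12.98, 12.72 and 12.95 after treatment, so that the groups overlapped. Its difference was −0.16 with an interval of −0.41 to 0.08 (limma adjusted p = 0.661). Irf2 read 10.09, 10.43 and 10.13 in controls and 10.00, 10.32 and 9.96 after treatment, also overlapping, with replicate 2 the highest in either group. Its difference was −0.13 with an interval of −0.45 to 0.20 (limma adjusted p = 0.823).

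Irf8 is required for the development of monocytes and of some dendritic cells. Its brighter probe set read 8.88, 8.75 and 8.73 in controls and 8.34, 8.38 and 8.37 after treatment. The highest treated array lay 0.35 below the lowest control, so the groups did not overlap. The difference was −0.42 (SE 0.093, 95% interval −0.64 to −0.21), with an unadjusted p of 0.00187 and a limma adjusted p of 0.142, short of the threshold. The other probe set read 8.84, 8.28 and 8.75 in controls and 8.09, 8.18 and 8.40 after treatment, a difference of −0.40 with overlapping groups (limma adjusted p = 0.44). Irf4, a factor of plasma cells and activated lymphocytes, had low signals of 7.34 to 7.49 in controls and 7.18 to 7.43 after treatment on its brighter probe set, a difference of −0.14 (limma adjusted p = 0.722). Its other probe set had the opposite sign, 0.25 (limma adjusted p = 0.574), at a mean signal of 6.94, below the low-signal limit of 7.0, the level under which 25% of probe sets lie.

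**Figure D2:**
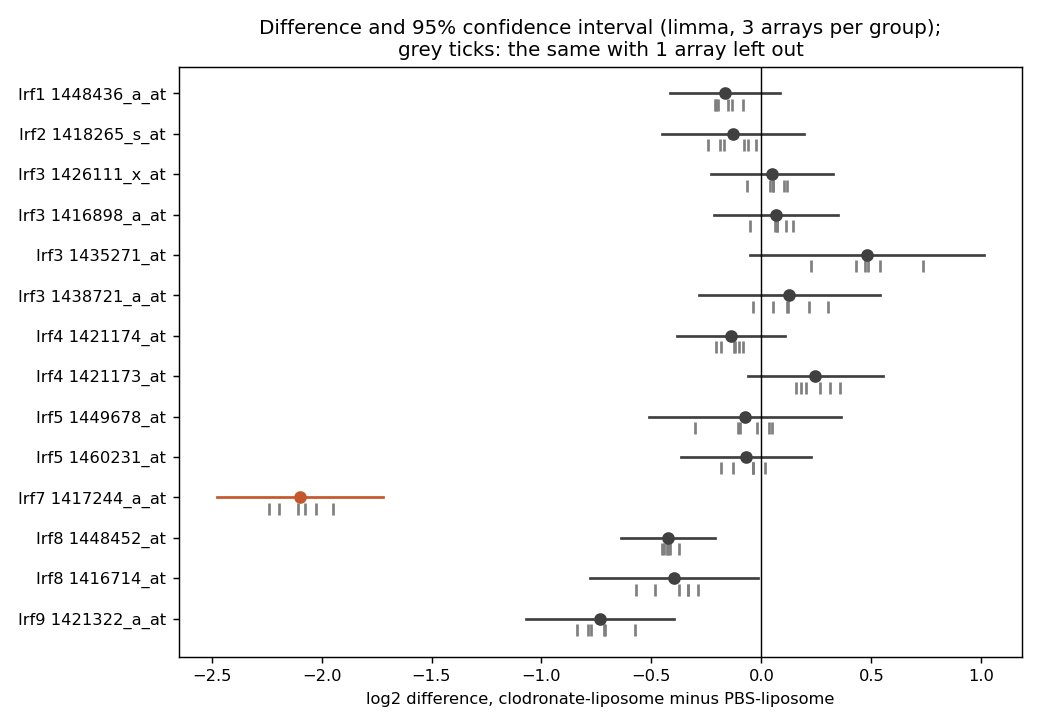
Clodronate-liposome minus PBS-liposome difference of each Irf probe set on the log2 scale, with its 95% interval from limma (3 arrays per group). Grey ticks show the difference with 1 array left out, and orange marks an adjusted p under 0.05. The interval of Irf7, −2.48 to −1.72, does not meet that of any other Irf probe set.

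To set Irf7 against the other members, its log2 signal minus that of each other Irf gene was taken on the same array and compared between groups, a description chosen after the values had been seen. The offsets themselves depend on the probes, and only the shift of their group means was read. The shift ran from −1.36 against Irf9 to −2.15 against Irf3. All 7 shifts share the values of Irf7, so they restate its own difference beside those of the other genes and carry no test.

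The genes of the pathway were described by lists, each gene by its brightest probe set. Among 11 measured genes of 12 listed for ISGF3 partners and interferon receptor signaling, 2 fell, 0 rose and 9 did not pass, where 0.346% of all genes fell and 0.0879% rose, and the median difference was −0.09. Stat2, the ISGF3 subunit that contacts Irf9, read 10.85, 10.73 and 10.78 in controls and 9.85, 9.95 and 10.00 after treatment, a difference of −0.85 (SE 0.095, limma adjusted p = 0.0203). Usp18, an interferon-induced protease that dampens receptor signaling, read 11.93, 11.89 and 11.84 in controls and 9.33, 10.41 and 10.29 after treatment, a difference of −1.88 (SE 0.26, limma adjusted p = 0.0374). Both genes separated the groups. Separation was downward in 4 of the 11 genes and upward in 1, where 8.75% and 7.49% of all genes were so separated. The kinase Jak1 (−0.13) and the interferon-gamma receptor genes Ifngr1 (0.11) and Ifngr2 (−0.16) did not pass. Socs3, an inhibitor of cytokine receptors, had 3 probe sets that disagreed, at 0.26 for the brightest, −1.66 (limma adjusted p = 0.00636) and −0.81. Without 1 array this list's count was 1 without clodronate-liposome replicate 1 and 0 without any other, and it was 0 with the hybridization covariate and with clodronate-liposome replicate 2 alone.

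Of 21 measured sensors, adaptors and kinases upstream of Irf3, Irf5 and Irf7 (23 listed), 3 fell, 0 rose and 18 did not pass, where 0.346% of all genes fell, and the median was −0.16. The groups were separated downward in 7 of the 21, where 8.75% of all genes were. The nucleic acid sensor Zbp1 read 9.88, 9.83 and 10.00 in controls and 8.25, 8.89 and 8.73 after treatment, a difference of −1.27 (limma adjusted p = 0.0314). The Toll-like receptor adaptor Myd88 read 11.29, 11.20 and 11.28 in controls and 10.62, 10.55 and 10.60 after treatment, a difference of −0.67 (limma adjusted p = 0.0343). Dhx58, a modulator of the RNA helicase sensors, fell by 1.34 (limma adjusted p = 0.0388), and its other probe sets gave −1.33 and −0.36. The sensors Ifih1 (−0.82), Sting1 (−1.07) and Ddx58 (−0.47) had no overlap between groups but did not pass, with limma adjusted p of 0.0615, 0.142 and 0.156. The count was 1 without clodronate-liposome replicate 1 or replicate 2 and 0 without any other array, and 0 with the hybridization covariate and with clodronate-liposome replicate 2 alone.

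Interferon genes themselves showed no called change. For 8 measured genes of 15 listed, 0 fell and 0 rose, where 0.346% of all genes fell and 0.0879% rose. At such shares a list this short is likely to hold no call. Differences of the 8 genes ran from −0.08 to 0.23 and the median was 0.0040. Their signals, 5.98 to 8.75 on any array, compare with an array median of 8.13, so low signal limits what could be detected. Ifnb1, which encodes interferon beta, read 7.01, 6.92 and 6.97 in controls and 7.17, 7.10 and 6.97 after treatment, a difference of 0.11 (limma adjusted p = 0.763). The largest difference was 0.23 for Ifna11 (limma adjusted p = 0.455).

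The ISRE is the element bound by ISGF3 and by Irf7. Of 20 measured targets of 22 listed, 11 fell, 0 rose and 9 did not pass, where 0.346% of all genes fell, and the median was −1.26. In all 20 the treated arrays lay below the controls, where 8.75% of all genes were separated that way. Ifit1, an RNA-binding antiviral protein, read 12.48, 12.54 and 12.39 in controls and 9.88, 10.70 and 10.59 after treatment, a difference of −2.08 (limma adjusted p = 0.0155). Oasl1, of the oligoadenylate synthetase family (−2.05, limma adjusted p = 0.00636), and Mx1, an antiviral GTPase (−1.97, limma adjusted p = 0.0155), fell by about as much. Oas2 (−1.93), Ifit3 (−1.77) and Mx2 (−1.44) fell too, with limma adjusted p of 0.0304, 0.00687 and 0.00687. The smallest difference was that of Trim25, at −0.16 (limma adjusted p = 0.586), with −0.35 and −0.45 on its other probe sets. Of the 17 genes of this list with a RefSeq window, 8 held the ISRE letters. When a PBS-liposome array was left out the count of 11 became 3 (replicate 1), 1 (replicate 2) or 3 (replicate 3). When a clodronate-liposome array was left out it became 8 (replicate 1), 6 (replicate 2) or 5 (replicate 3). It was 0 with the hybridization covariate and with clodronate-liposome replicate 2 alone.

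Of 19 genes listed as Irf1-dependent targets, all measured, 4 fell, 0 rose and 15 did not pass, where 0.346% of all genes fell. The median was −0.49. The groups were separated downward in 14 of the 19, where 8.75% of all genes were. The T cell chemokine Cxcl10 read 10.96, 10.87 and 10.85 in controls and 9.26, 9.52 and 9.32 after treatment, a difference of −1.53 (limma adjusted p = 0.00636). The related chemokine Cxcl9 had a difference of −1.60 (limma adjusted p = 0.0166), while its dimmer probe set gave −0.49. Cd274, which encodes PD-L1, and Nlrc5, the transactivator of MHC class I genes, also fell (−1.10 and −1.14, limma adjusted p 0.0312 and 0.034). The peptide transporter Tap1 (−0.69, limma adjusted p = 0.0656) and Cxcl11 (−0.84, limma adjusted p = 0.0958) did not pass. Other Tap1 probe sets gave −0.21, 0.065 and 0.28, and the other Cxcl11 probe set −0.31. Of the 13 genes of this list with a RefSeq window, 4 held the ISRE letters, Cxcl10 among them. Irf1 itself differed by −0.16 without passing. Whether these differences depend on Irf1 or on an ISRE was not tested. The count was 3 without clodronate-liposome replicate 2, 1 without any other array, and 0 with the hybridization covariate and with clodronate-liposome replicate 2 alone.

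DNA-binding partners and modulators of IRF proteins held no called change. Of 13 measured genes of 14 listed, 0 fell and 0 rose, where 0.346% of all genes fell and 0.0879% rose. The median was −0.0093. Trim21, a ubiquitin ligase acting on several IRFs (−0.55, limma adjusted p = 0.183), Batf2 (−0.44, limma adjusted p = 0.154) and Batf3 (−0.39, limma adjusted p = 0.277) had lower treated arrays without overlap. Separation was thus downward in 3 of the 13 genes and upward in 1, where 8.75% and 7.49% of all genes were so separated. Batf2 and Batf3 are basic leucine zipper proteins that bind DNA with Irf4 or Irf8. The coactivator Crebbp (0.11), the corepressor Irf2bp2 (0.10) and Batf (−0.14) lay closer to 0. Other Irf2bp2 probe sets gave −0.33, 0.02 and 0.19.

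**Figure D3:**
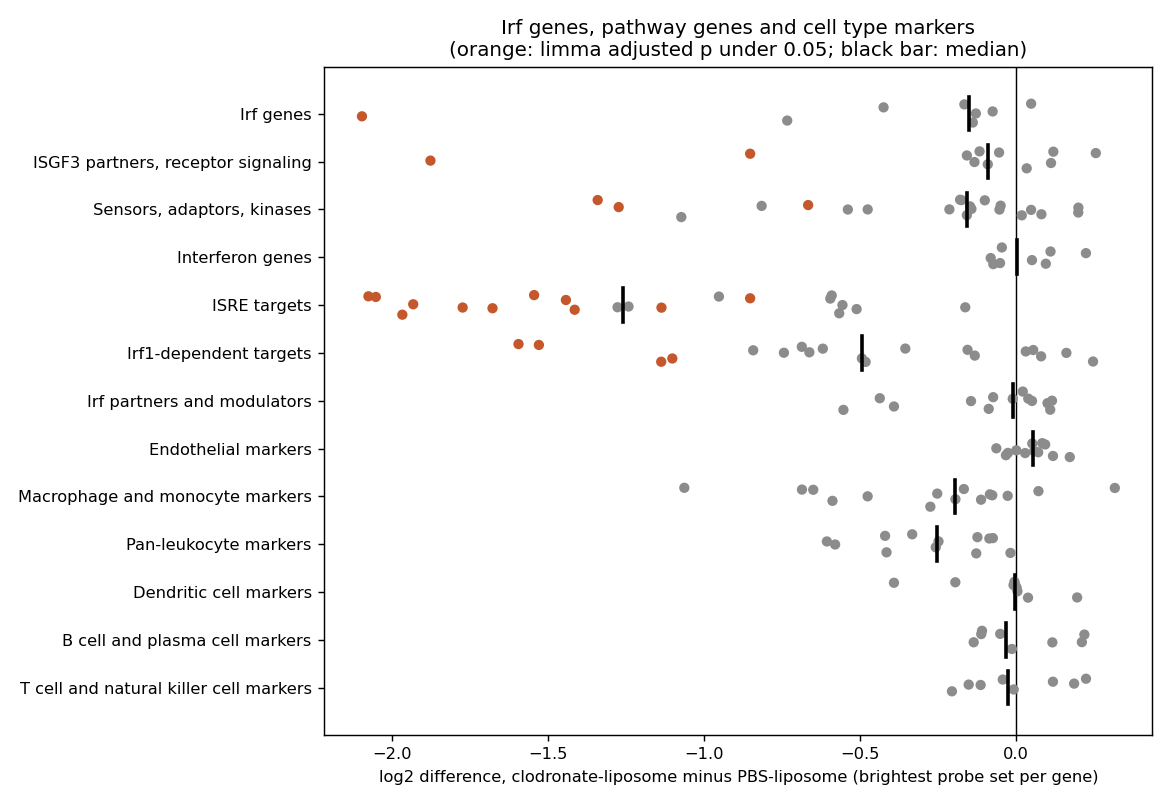
Clodronate-liposome minus PBS-liposome difference, on the log2 scale, of the genes of each list, by the brightest probe set of each gene. Each point is a gene, orange marks a limma adjusted p under 0.05 and the black bar is the list median, which is −0.15 for Irf genes and −1.26 for ISRE targets. All called genes of these lists lie below 0.

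Within the treated group the ISRE targets were not equally low. Clodronate-liposome replicate 1 was the lowest treated array for 14 of the 20 ISRE targets (70%) and for 14 of the 21 sensors, adaptors and kinases (66.7%), as it was for Irf7 and Irf9, against 32.7% of all genes. It was the lowest for 9 of 19 Irf1-dependent targets (47.4%), 4 of 13 partners and modulators (30.8%), 2 of 11 ISGF3 partners and receptor genes (18.2%) and 1 of 8 interferon genes (12.5%). It is also the array with the highest 18S and lowest hybridization controls. The part of this in the results was not tested. Without replicate 1 Irf7 differed by −1.95 and Irf9 by −0.57. That fit keeps clodronate-liposome replicate 3, whose control probe sets stood apart in the same way.

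The genes whose profile lay nearest to an Irf gene were found for Irf7 and Irf9, the 2 with the smallest p, as the root-mean-square distance over the 6 arrays after each gene was centred on its own mean. Nearest to Irf7 were Oasl1 (0.171), Oas2 (0.177), Mx1 (0.182), Ifit1 (0.206) and Ifit3 (0.210), where the median over all genes was 1.07. All 5 are among the ISRE targets above. Nearest to Irf9 were Ddit4 (0.059), Grrp1 (0.068), Pfkfb3 (0.071), Sema6b (0.082) and Fosl2 (0.088), where the median was 0.422. None of these is on an interferon list used here. Ddit4, an inhibitor of mTORC1 signaling, read 11.80, 11.79 and 11.84 in controls and 10.83, 11.40 and 11.28 after treatment, a difference of −0.64. Grrp1 differed by −0.81, Pfkfb3, a regulator of glycolysis, by −0.62, Sema6b, a semaphorin, by −0.79, and Fosl2, a subunit of AP-1, by −0.59. Genes were picked for likeness over all 6 arrays, the groups included, so these distances and differences are descriptions. The medians over all genes mostly reflect the size of the group differences of Irf7 and Irf9 themselves. Shared regulation was not tested.

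**Figure D4:**
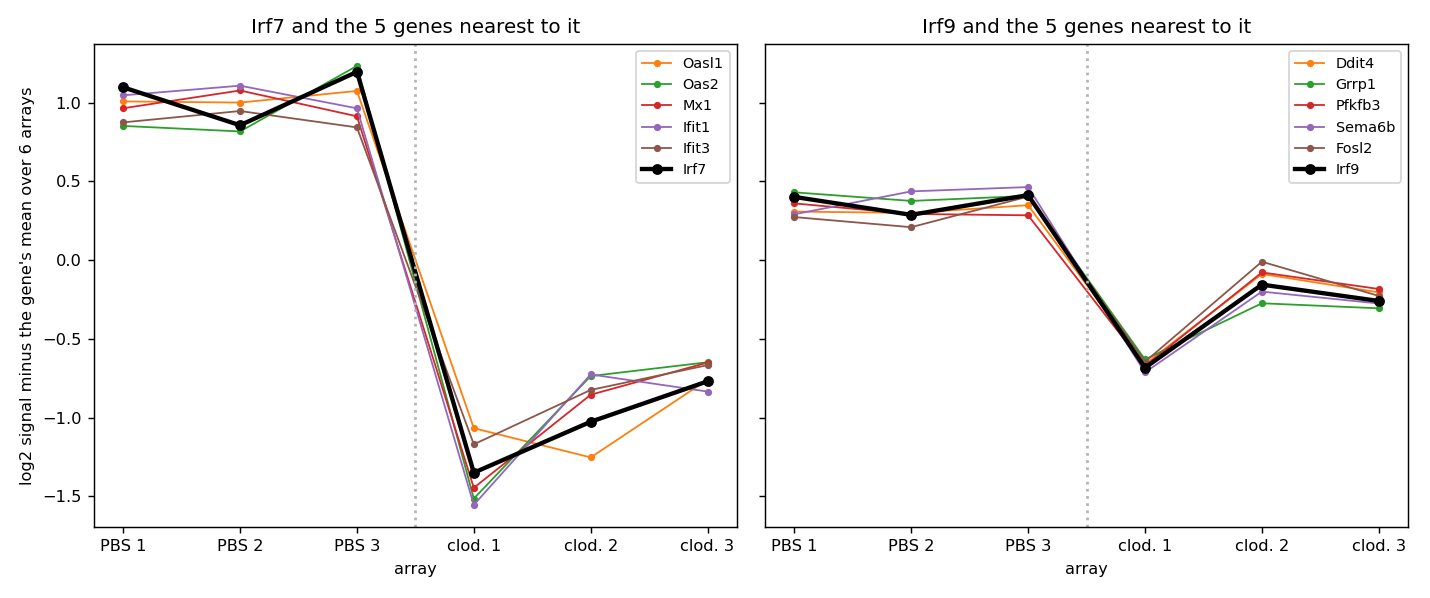
Log2 signal of Irf7 (left) and Irf9 (right) on the 6 arrays, in black and centred on the gene's mean, with the 5 genes nearest to each. The dotted line divides the groups (clod., clodronate-liposome). Clodronate-liposome replicate 1 is the lowest array for Irf7, Irf9 and 9 of the 10 neighbors, the exception being Oasl1.

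Irf5, Irf7 and Irf8 are also expressed by leukocytes, and in sorted bulk RNA fewer cells of a type and less RNA per cell cannot be told apart. None of 15 macrophage and monocyte markers was called, where 0.346% of all genes were called lower. The list median was −0.19. Of the 15 markers, 13 had a lower treated mean, 6 without overlap where 8.75% of all genes were so separated. Their mean log2 signal was 8.40 to 8.78 in controls and 8.24 to 8.40 after treatment. Their summed linear signal, which weights the brightest markers most, was 10389.9 to 12595.3 and 9755.93 to 11089.8, so the summed ranges overlapped. Mertk, the brightest of the 15 markers, weighs most in this sum and differed by 0.07, while differences of single markers ran from −1.06 to 0.32. Csf1r, the receptor for macrophage colony-stimulating factor, read 8.82, 8.46 and 8.81 in controls and 8.09, 8.08 and 7.98 after treatment (−0.65, limma adjusted p = 0.101), with −1.24 and −0.17 on its other probe sets. Adgre1, a surface marker of mouse macrophages (−0.17), and Cd68 (−0.08) differed less and did not pass.

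All 12 pan-leukocyte markers had a lower treated mean, 4 without overlap where 8.75% of all genes were so separated. Of the 12 markers, 0 were called, where 0.346% of all genes were called lower, and the median was −0.25. Their mean was 8.18 to 8.65 in controls and 8.08 to 8.17 after treatment, and their summed linear signal 5800.74 to 7746.41 and 5697.4 to 5879.76. Ptprc, which encodes the CD45 that the sort selected against, read 8.48, 8.71 and 8.57 in controls and 7.66, 8.22 and 8.13 after treatment (−0.58, limma adjusted p = 0.217). These values moved in the same direction as Irf7, Irf8 and Irf9, and their part in the Irf differences was not tested. Spi1, which encodes the myeloid factor PU.1 that pairs with Irf4 and Irf8, differed by −0.07 (limma adjusted p = 0.869).

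Markers of other leukocytes held no called gene, where 0.346% of all genes were called lower and 0.0879% higher. The 9 measured dendritic cell markers had a median difference of −0.0015, with Flt3 at −0.0015 and Siglech, of plasmacytoid dendritic cells, at 0.20, neither of which passed. The 8 B cell and plasma cell markers ranged from 5.84 to 8.93 over all arrays and the 8 T cell and natural killer cell markers from 6.40 to 8.03. Cd79a, a B cell receptor subunit, differed by −0.11 (limma adjusted p = 0.82).

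**Figure D5:**
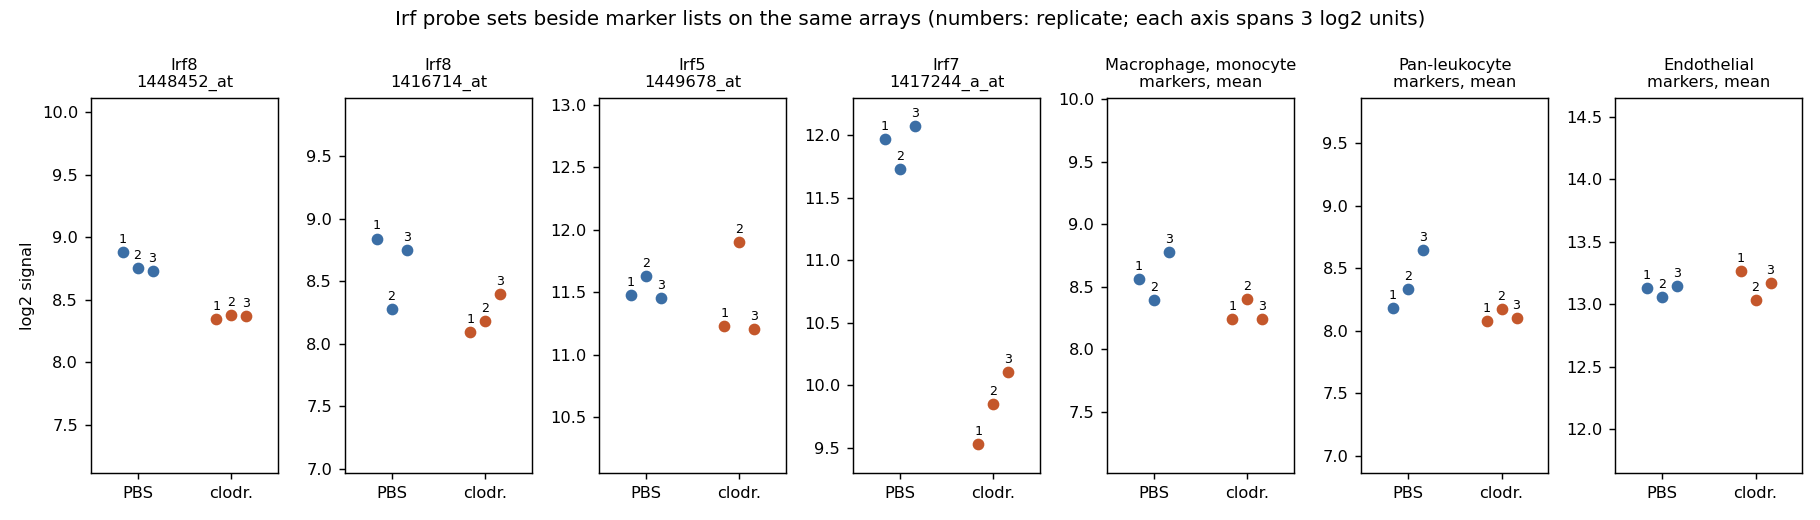
Log2 signals of 4 Irf probe sets and the mean log2 signal of 3 marker lists on the same arrays, with the replicate number above each point. Every axis spans 3 log2 units. Irf7 separates the groups by 1.63, the pan-leukocyte means are 8.18 and above in controls and 8.17 and below after treatment, the macrophage and monocyte mean overlaps and the endothelial mean ranges from 13.03 to 13.27.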

How the data were processed

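RNA from 1 ng of total input was amplified and labeled for Affymetrix Mouse Genome 430 arrays, version 2.0. The deposited log2 values were made by the authors with robust multiarray averaging (Chipster, version 3.8.0 in the submitters' processing notes), which corrects background, equalizes the arrays' distributions and summarizes probes. Such values compress low signals. They were used as deposited, and the number of arrays, 3 per group, limits their precision.

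The 64 manufacturer control probe sets were set aside. Of the other 45037, 34945 had 1 gene symbol, and each gene was represented by its brightest probe set over all arrays. Differences were tested without covariates with limma 3.58.1 in R 4.3.3 (lmFit, eBayes, two-sided) and adjusted by Benjamini-Hochberg over 45037 probe sets, threshold 0.05. Alternatives were a low-signal filter, repeated quantile normalization, median centring, trended and robust eBayes, array weights, a replicate block, a hybridization-control covariate, other rules for probe sets, and fits without single arrays. The script was tested on simulated data with independent normal noise of equal spread in both groups, which the real data need not have. It recovered 10.4% of changes of 0.5 log2 units, 94% of changes of 1 and 97% of changes of 2. Of its calls there, 7.59% were false. A difference near 0.5 that was not called is therefore not shown to be absent. Larger differences also went uncalled in the real data, such as that of Sting1 (−1.07, limma adjusted p = 0.142).

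The Irf genes and the lists were chosen with earlier results of these data known, so counts over lists carry no test. Named genes were all Irf probe sets, up to 6 members per pathway list by p, preset markers and the 5 nearest profiles. Trim25 and Mertk were named after their values were seen. Older symbols matched 2 list genes. Upstream sequences came from RefSeq (GRCm38.p6), and motif positions give the first base. Listed genes without a measured value were not analysed here.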

Additional observations from a re-analysis of the deposited data

How the results depend on the processing

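The Irf7 call and 4 of the 6 pathway list counts were lost under 3 models, and the count for interferon genes was 0 in every fit. With the replicate number as a block, with the hybridization-control covariate and when clodronate-liposome replicate 2 alone stood for its group, the counts were 0 for Irf probe sets, all probe sets, ISGF3 partners, sensors, ISRE targets and Irf1-dependent targets. The smallest limma adjusted p was then 0.0507, 0.0608 and 0.133, while 5033, 4710 and 3964 probe sets had an unadjusted p under 0.05. Irf7 remained at −2.10 under the block (limma adjusted p = 0.0507). The labels do not say whether same-numbered replicates were paired. Their deviations from the group means correlated at 0.0751, 0.0699 and 0.0361, which cannot settle it. Trended and robust eBayes called 248 probe sets in place of 138, 17 ISRE targets and 7 Irf1-dependent targets, and array weights 234 probe sets. With the mean of all probe sets per gene, 1 partner gene, Trim21, was called.

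Without 1 array, 6 to 73 probe sets were called, 1 to 1 Irf probe sets, 0 to 1 ISGF3 partners, 0 to 1 sensors, 1 to 8 ISRE targets and 1 to 3 Irf1-dependent targets. Signs of uncalled differences turned for Irf2 (0.076 with the covariate, 0.099 with replicate 2 alone), Irf3 (−0.049 and −0.080, and from −0.068 to 0.11 without 1 array), Irf5 (0.25 and 0.39, and from −0.30 to 0.047 without 1 array) and Irf4 (0.25 with the most variable probe set, 0.054 with the mean of probe sets). The cause was not tested. Irf8 and Irf9 stayed lower and uncalled in every alternative run.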
